A study of Mus musculus with 8 samples.

Results

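The genes described here are the immunoglobulin genes of the array: variable segments of the heavy, kappa and lambda chains, and the constant region of the IgM heavy chain. They were taken by name, as genes whose symbol in the platform's probe table starts with the heavy, kappa or lambda chain prefix. They also had to have a value on all 8 arrays. This rule was set with earlier results of these data known. By this rule 11 symbols on 13 probes were found, and 10 genes on 11 probes had values throughout, out of 11597 genes measured. They comprised 3 heavy variable segments (Ighv1-17, Ighv1-77 and Ighv14-4), 5 kappa variable segments (Igkv3-4, Igkv4-57-1, Igkv6-20, Igkv8-19 and Igk-V21), 1 lambda variable segment (Iglv1) and 1 constant region (Ighm). A comparison of variable segments with constant regions therefore rested on Ighm alone. The kappa segment Igkv4-72 lacked a value on 2 arrays and is described separately.

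RNA came from lung interstitial leukocytes, the white blood cells recovered from digested lung on a Percoll gradient, of mice aged 6 to 8 weeks. There were 4 groups with 2 arrays each: RagKO silica, RagKO saline, WT silica and WT saline. RagKO mice were Rag1-/- and were depleted of natural killer cells with repeated injections of 300 µg anti-NK1.1, so the gene deletion and the depletion cannot be told apart; their strain background is not given in the sources used here. WT mice were C57Bl/6, and the labels name the antibody for Rag1-/- mice only. Every mouse had 25 µl of saline instilled through the nose each week for 4 weeks, and in the silica groups each dose held 1 mg of crystalline silica. Each array set leukocyte RNA (Cy5) against a universal mouse reference RNA (Cy3), so every value below is a log2 ratio to that reference. The base of the deposited logarithm was inferred to be 10, and with a base of 2 all log2 differences would be smaller by a factor of 3.3219. How many mice each array represents is not stated in the labels, which call the arrays biological replicates, so a p-value reflects array-to-array spread and no more. No value for Rag1 itself was analysed here.

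An antibody is built from heavy and light chains, each with a variable region that binds antigen and a constant region. The gene for a variable region is assembled in developing B cells by joining V, D and J segments, a cut-and-join reaction that needs the Rag1 and Rag2 proteins. Without it no complete antibody gene is formed and B cell development stops early, although the unrearranged IgM constant region can still be transcribed from its own upstream start. Mature B cells carry antibody on their surface, and plasma cells, their descendants, secrete it and devote much of their RNA to antibody chains.

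A probe cannot always tell one segment from another. Variable segments, above all those of a family, share long stretches of sequence, so a probe named for one segment may also bind transcripts of its relatives, and individual values are uncertain for that reason. By their symbols Ighv1-17 and Ighv1-77 belong to 1 family, and no other pair of members shares a family by name. In RefSeq's mouse gene table (GRCm38.p6), 8 of the 9 variable members were found by identifier; 7 are annotated as V segments, and Ighv1-17 as a V segment pseudogene. Igk-V21 was not found by identifier and keeps the platform's name, which gives no family. The gene table lists that name as a synonym of Igkv1-117. Igkv6-20 and Igkv8-19 are next to each other in the kappa locus, with 0 annotated V segments between them.

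Across the series, the arrays of a group correlated over probes with r between 0.9778 and 0.9901, and array medians spanned 0.0677 on the log2 scale. The leukocyte markers Ptprc, Laptm5, Coro1a and Cd52 were all measured, and their mean lay at 2.59 and 2.45 in RagKO silica, 2.33 and 1.99 in RagKO saline, 3.44 and 3.38 in WT silica and 3.97 and 3.95 in WT saline. Markers of lung epithelium (7 of 7 measured) averaged 3.09 and 2.90 in RagKO silica, 3.35 and 3.35 in RagKO saline, 2.93 and 3.03 in WT silica and 2.05 and 2.11 in WT saline, so these transcripts were present in every group. Fibroblast and smooth muscle markers (7 of 7 measured) averaged 1.66 and 1.40 in RagKO silica, 1.68 and 1.67 in RagKO saline, 0.94 and 0.73 in WT silica and 0.07 and 0.12 in WT saline. The log2 ratio of Rn28s1, a ribosomal RNA gene, was 0.86 and 0.59 in RagKO silica, 2.43 and 2.08 in RagKO saline, 2.17 and 2.45 in WT silica and 3.67 and 3.71 in WT saline. These levels move with the groups, and their part in the results was not tested. Sex-linked transcripts differed within and between groups. Xist lay at -1.87 and 1.87 in RagKO silica, -1.59 and -1.72 in RagKO saline, 0.54 and 0.23 in WT silica and -0.04 and -0.18 in WT saline. Eif2s3y, on the Y chromosome, lay at 2.42 and -2.22 in RagKO silica, 2.90 and 2.60 in RagKO saline, 0.34 and 1.05 in WT silica and 2.32 and 2.27 in WT saline. The part of sex in the results was not tested, and values are given with 1 array left out where that changes a call.

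WT saline arrays were the highest for all 10 members, and Iglv1 spanned the widest range. Its log2 ratio was -3.07 and -3.17 in RagKO silica, -3.14 and -2.90 in RagKO saline, 3.06 and 3.01 in WT silica, and 4.73 and 4.64 in WT saline. For Iglv1 the RagKO arrays lay far below every WT array, and the WT silica arrays lay below the WT saline arrays. Ighm, the constant region of the first antibody class made by a B cell, read 2.95 and 2.30 in RagKO silica, 2.58 and 2.64 in RagKO saline, 6.06 and 6.01 in WT silica, and 6.97 and 7.15 in WT saline. Ighm stood above the reference RNA in all 4 groups, RagKO included, whereas all 9 variable segments read below the reference on every RagKO array.

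**Figure D1:**
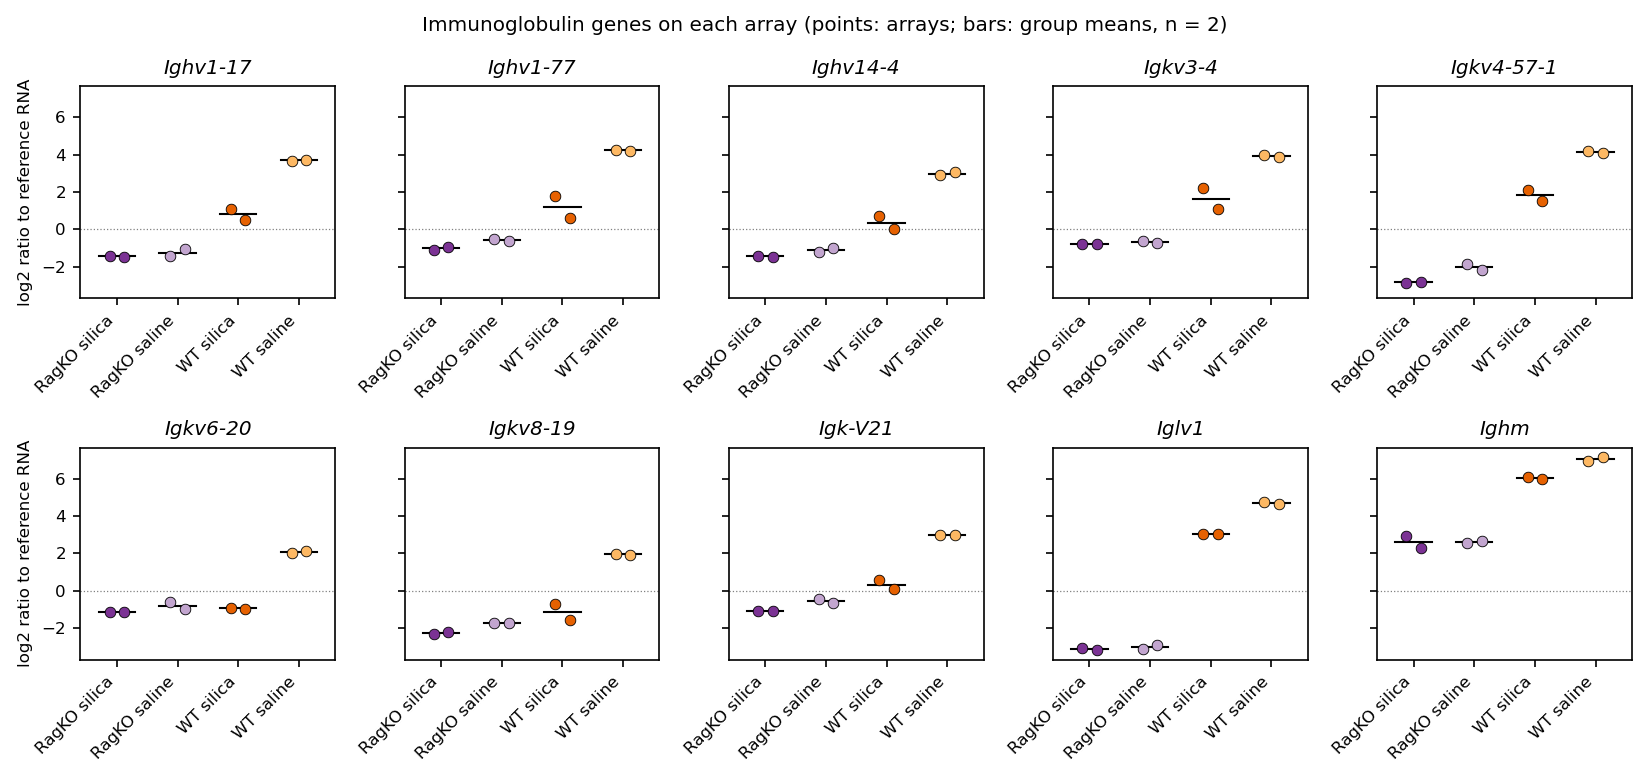
Log2 ratio to the reference RNA (vertical axis) of each of the 10 immunoglobulin genes on the 2 arrays of RagKO silica, RagKO saline, WT silica and WT saline mice (horizontal axis), with bars at the group means. WT saline arrays are highest for every gene, and Igkv6-20 in WT silica (-0.92 and -0.97) lies close to its RagKO values.

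The heavy variable segments had the same order of groups, RagKO lowest and WT saline highest. Ighv1-77 read -1.10 and -0.94 in RagKO silica, -0.54 and -0.65 in RagKO saline, 1.78 and 0.59 in WT silica, and 4.24 and 4.20 in WT saline. Ighv1-17 read -1.43 and -1.48 in RagKO silica, -1.44 and -1.06 in RagKO saline, 1.09 and 0.50 in WT silica, and 3.66 and 3.72 in WT saline. Ighv14-4 read -1.43 and -1.47 in RagKO silica, -1.22 and -0.99 in RagKO saline, 0.69 and 0.00 in WT silica, and 2.89 and 3.07 in WT saline. In each, both WT silica arrays lay between the RagKO and the WT saline arrays. The probe named for the pseudogene Ighv1-17 thus had WT values in the range of the other heavy segments.

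The kappa variable segments were less uniform. Igkv4-57-1 read -2.89 and -2.81 in RagKO silica, -1.84 and -2.19 in RagKO saline, 2.12 and 1.51 in WT silica, and 4.20 and 4.07 in WT saline. Igkv3-4 read -0.78 and -0.81 in RagKO silica, -0.61 and -0.72 in RagKO saline, 2.22 and 1.07 in WT silica, and 3.95 and 3.88 in WT saline. Igk-V21 read -1.08 and -1.07 in RagKO silica, -0.46 and -0.67 in RagKO saline, 0.57 and 0.08 in WT silica, and 2.99 and 3.01 in WT saline. These 3 stayed above the reference in both WT groups. The neighbouring segments did not: Igkv8-19 read -2.29 and -2.22 in RagKO silica, -1.71 and -1.71 in RagKO saline, -0.70 and -1.56 in WT silica, and 1.98 and 1.92 in WT saline. Igkv6-20 read -1.14 and -1.16 in RagKO silica, -0.62 and -0.98 in RagKO saline, -0.92 and -0.97 in WT silica, and 2.00 and 2.14 in WT saline. For both, the WT silica arrays read below the reference RNA and the WT saline arrays above it. For Igkv6-20 the WT silica arrays lay within the range of the RagKO saline arrays.

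The first comparison asked what the loss of Rag1, with NK depletion, did to these genes after saline. All 10 were lower in RagKO (limma, adjusted p below 0.05), where 29.2% of all genes were lower, 37% higher and 66.2% called in all. The median difference over the 9 variable segments was -4.59 on the log2 scale, against 0.10 over all genes. Iglv1 was lower by a factor of 208 (log2 difference -7.70, SE 0.12, adjusted p = 1.05e-10), and 0 of the 11597 genes had a lower difference. Ighm was lower by a factor of 21.9 (log2 difference -4.45, SE 0.18, adjusted p = 5.42e-08), and ranked 13 by size of fall. Fewer cells of a type and less RNA per cell cannot be told apart in such bulk RNA, and this holds for silica in WT mice as well.

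Variable segments lay on both sides of the constant region in this comparison, with Ighm taken as the mean of its 2 probes. The probes gave -5.18 (A_51_P485421) and -3.72 (A_52_P571419), so which segments fell further than Ighm depends on the probe. The order and the test against Ighm that follow use this mean, and the test was not run on single probes. Igkv4-57-1 (-6.16, 71.3-fold), Ighv1-17 (-4.94), Ighv1-77 (-4.82) and Igkv3-4 (-4.59) followed Iglv1, and Ighv14-4 (-4.08), Igkv8-19 (-3.66), Igk-V21 (-3.57) and Igkv6-20 (-2.87, 7.3-fold) came after Ighm. To test each difference from Ighm directly, the Ighm ratio was subtracted from every gene on each array, and the result was fitted in limma without variance moderation. Iglv1 (by -3.25, adjusted p = 0.000188) and Igkv4-57-1 (by -1.70, adjusted p = 0.0103) were lower in RagKO relative to Ighm, where 0.0604% of all genes were. Igkv6-20 (by 1.58, adjusted p = 0.00425) and Igk-V21 (by 0.89, adjusted p = 0.0423) were higher relative to Ighm, as were nearly all other genes, since 99.7% of genes passed in one direction or the other. The other 5 segments did not pass, with intervals from -1.76 at the lowest to 1.87 at the highest, each of which reached beyond 1 log2 unit on a side. RagKO saline means of the variable segments ran from -3.02 (Iglv1) to -0.57 (Igk-V21). Spots near background could not be recognised, so a size may be cut short by the lowest value a probe can give. The part of this in the order of sizes was not tested.

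Genes of the cells that make antibody were lower as well, on lists chosen with earlier results of these data known. All 6 measured B cell genes were lower in RagKO (18 were listed; median -4.50), with Ms4a1, which encodes CD20 (-6.70), the BAFF receptor gene Tnfrsf13c (-5.17), Ly6d (-5.60) and Cd72 (-2.53) having the smallest p-values and Cd79b at -3.83. Of 25 plasma cell and secretion genes 15 were lower and 5 higher (median -0.53), with the B cell coactivator Pou2af1 at -5.70, the joining chain gene Jchain at -5.88, Derl3, which serves the removal of misfolded proteins from the endoplasmic reticulum, at -4.13 and Mzb1 at -2.77. Of 13 genes of antigen receptor assembly and class switching 3 were lower and 6 higher: the hypermutation polymerase gene Polh fell by 3.46, Vpreb3 by 1.90 and the uracil glycosylase gene Ung by 1.59, and the DNA end-joining gene Xrcc4 was 1.27 higher. Receptors that bind or carry antibody had 4 higher and 3 lower of 8, with the neonatal Fc receptor gene Fcgrt at 1.10 and Fcgr3 at 0.86. Of 11 B cell help and survival genes 5 were higher and 4 lower, and the B cell survival factor gene Tnfsf13b (BAFF) was 1.44 higher. All 5 T cell markers measured (median -2.95) and all 5 NK cell markers measured (median -1.14) were lower in RagKO too. Of 4 leukocyte markers 3 were also lower in RagKO (median -0.97), and of 7 epithelial markers RagKO had 4 higher and 2 lower (median 2.22). The part of these shifts in the immunoglobulin values was not tested.

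**Figure D2:**
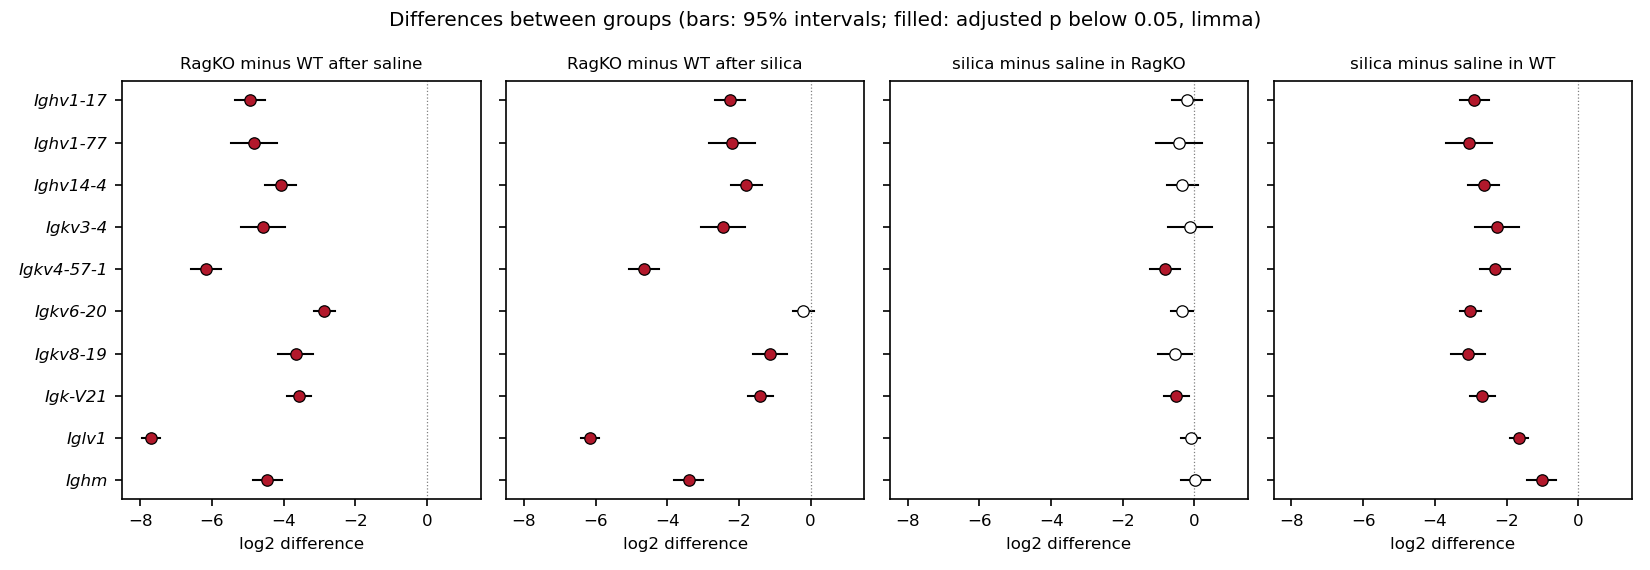
Log2 differences (horizontal axis) of the 10 immunoglobulin genes in 4 comparisons between groups, with 95% intervals as bars and filled points where the adjusted p was below 0.05. All 10 points are filled for RagKO against WT after saline and for silica in WT, 9 for RagKO against WT after silica, and 2 for silica in RagKO.

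The second comparison set RagKO against WT after silica. In it 9 of 10 members were lower in RagKO, where 26.4% of all genes were lower, 33.7% higher and 60.1% called in all, and the median over the variable segments was -2.20, against 0.07 over all genes. Iglv1 was lower by a factor of 71.3 (difference of -6.16, SE 0.12, adjusted p = 6.18e-10) and Igkv4-57-1 by a factor of 25.3 (-4.66, SE 0.19, adjusted p = 9.66e-08). For Ighm the factor was 10.6 (-3.41, SE 0.18, adjusted p = 4.07e-07). The heavy segments Ighv1-17 (-2.25), Ighv1-77 (-2.20) and Ighv14-4 (-1.79) and the kappa segments Igkv3-4 (-2.44), Igk-V21 (-1.40) and Igkv8-19 (-1.13) were lower by smaller amounts.

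Igkv6-20 was the exception, with a log2 difference of -0.20 and an interval from -0.50 to 0.09 (adjusted p = 0.21). The 2 RagKO silica arrays (-1.14 and -1.16) still lay below the 2 WT silica arrays (-0.92 and -0.97), and after quantile normalization the difference was -0.38 with an adjusted p of 0.0379, the lowest of its alternatives, which reached 0.395. Its neighbour Igkv8-19 kept a 2.19-fold difference (-1.13, SE 0.22, adjusted p = 0.0012). That SE rests on a spread shared by the 4 groups. The SD of Igkv8-19 was 0.61 in WT silica and at most 0.05 in any other group. Its SE and p-value here are therefore too small for the spread of WT silica. Without WT silica replicate 1 the median over the variable segments was -1.60, and without WT silica replicate 2 it was -2.54, with 9 members called each time.

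Relative to Ighm, the variable segments now split widely. Iglv1 (by -2.75, adjusted p = 0.000445) and Igkv4-57-1 (by -1.25, adjusted p = 0.0282) were again lower in RagKO than Ighm was, where 0.0604% of genes were lower by that measure. Igkv6-20 (by 3.21), Igkv8-19 (by 2.28), Igk-V21 (by 2.01), Ighv14-4 (by 1.62) and Ighv1-17 (by 1.16) were higher relative to Ighm, with adjusted p from 0.000455 to 0.0194, where 99.4% of genes passed in either direction. Ighv1-77 (by 1.21, adjusted p = 0.0747) and Igkv3-4 (by 0.97, adjusted p = 0.102) did not pass. These sizes have the same limit as those after saline, since spots near background could not be recognised. The 2 Ighm probes gave -3.67 (A_51_P485421) and -3.14 (A_52_P571419) here, and the fit used their mean.

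Around these genes, 5 of 6 B cell genes were lower in RagKO after silica, among them Ms4a1 (-6.36) and Ly6d (-4.84), and Cd72 did not pass (0.05, adjusted p = 0.766). Of the 25 plasma cell and secretion genes 13 were higher and 7 lower (median 0.35): Pou2af1 (-5.17) was lower, and the secretory pathway genes Sec11c (2.10), Pdia4 (1.99) and Sec61b (1.51) were higher. Jchain, by contrast, was lower at -2.94. Of the 8 antibody receptor and transport genes 5 were higher and 1 lower, among them the inhibitory IgG receptor gene Fcgr2b (2.26) and Lilrb4a (1.60). Macrophage markers were higher in 5 of 7 cases and lower in 2 (median 1.01), and their part in this was not tested.

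The third comparison asked what silica did to antibody transcripts in WT mice. All 10 members fell (limma, adjusted p below 0.05), where 8.21% of all genes fell, 11.5% rose and 19.7% were called in all. The median over the variable segments was -2.67, against -0.01 over all genes. Igkv8-19 fell 8.44-fold (log2 difference -3.08, SE 0.22, adjusted p = 4.67e-05), Ighv1-77 8.23-fold (-3.04, SE 0.29, adjusted p = 0.000169) and Igkv6-20 8.07-fold (-3.01, SE 0.13, adjusted p = 2.9e-06). These ranked 6, 7 and 8 among all genes by size of fall. Each SE rests on 1 spread per gene shared by the 4 groups. The SD of Ighv1-77 was 0.84 in WT silica and at most 0.12 in any other group. For Ighv1-77 and Igkv8-19 the SEs and p-values given here are therefore too small for the spread of WT silica.

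The other segments fell by less. Ighv1-17 changed by -2.89, Igk-V21 by -2.67, Ighv14-4 by -2.64, Igkv4-57-1 by -2.33 and Igkv3-4 by -2.27, and all of these were among the 18 largest falls. Iglv1 fell 3.13-fold (-1.65, interval -1.90 to -1.39), and its interval did not overlap those of Igkv6-20 (-3.31 to -2.72) and Igkv8-19 (-3.56 to -2.60). The interval of Igkv8-19 used the shared spread, so its separation from Iglv1 is less certain. Light chain segments therefore lay at both ends of the range, with the heavy segments between -3.04 and -2.64.

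Among the 10 members Ighm had the smallest change. Ighm averaged 6.04 ± 0.04 after silica and 7.06 ± 0.13 after saline (SD, n = 2 each), a 2.03-fold fall (-1.02, SE 0.18, adjusted p = 0.00387). Its 2 probes gave different sizes: A_51_P485421 changed by -1.44 (adjusted p = 0.000276) and A_52_P571419 by -0.60 (adjusted p = 0.0452). The estimates for all 9 variable segments were larger falls than that of either probe. With the Ighm ratio subtracted on each array, 7 of 9 segments were lower after silica, where 0.19% of all genes were (66.7% in either direction), with differences from -2.05 for Igkv8-19 to -1.30 for Igkv4-57-1 and adjusted p from 0.0224 to 0.0429. Igkv3-4 (by -1.25, adjusted p = 0.0665) and Iglv1 (by -0.62, adjusted p = 0.0664) did not pass.

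Igkv4-72, which the rule left out, gave the same picture on the arrays that measured it. It read -0.11 on the RagKO silica array and -0.13 on the RagKO saline array that had a value, 2.38 and 1.83 in WT silica, and 4.75 and 4.69 in WT saline. When probes with missing values were kept, it fell by 2.62 after silica in WT (adjusted p = 0.000116) and differed by -4.85 between RagKO and WT after saline, where 1 RagKO array entered. A further probe of Ighv14-4, with values on 5 arrays, read 0.82 on 1 WT silica array against 2.73 and 2.59 in WT saline. On 1 RagKO silica and 1 RagKO saline array it read -0.17 and -0.05, where the probe used read -1.43 and -1.22. Its gap between RagKO and WT thus had the same direction but was smaller after both treatments.

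A few genes of antibody secretion fell as far as the variable segments, and none of the measured B cell genes did. The lists were not tested against each other. Of 25 plasma cell and secretion genes 18 fell and 1 rose (median -0.79), led by Derl3 (-3.24), Jchain (-3.23), Mzb1 (-1.81) and Eaf2 (-1.57), and Hspa5 was the one that rose (0.60). Of 6 plasma cell markers among them 4 fell, and Sdc1 and Prdm1 did not pass. Sdc1 averaged 0.92 after silica and 0.67 after saline, and Prdm1 averaged 0.07 and -0.07. Of 6 B cell genes 4 fell (median -0.61): Tnfrsf13c by 1.16, Ms4a1 by 0.96, Ly6d by 0.63 and Cd72 by 0.58. Each of the 9 variable segments changed by more than any of these 6, whose lowest difference was -1.16. Of 13 assembly and class switching genes 4 fell, with Polh at -0.71, Ung at -0.58, Vpreb3 at -0.54 and Lig4 at -0.41.

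Signals that act on B cells moved in both directions. Of 11 help and survival genes 3 rose and 3 fell: Il6, a plasma cell growth factor, rose by 1.22, Tnfsf13b by 0.61 and Il4 by 0.58, and Cxcl13, the chemokine that draws B cells into follicles, fell by 1.71, as did Il10 (-0.49) and Tnfrsf13c. Only Fcgr4 (-0.67) of the 8 antibody receptor and transport genes passed. Of 4 leukocyte markers 3 fell, and all 4 differences lay between -0.65 and -0.45 (median -0.55), against -3.08 to -1.65 for the variable segments. Of 5 T cell markers measured 1 fell and 0 rose (median -0.0025). Of 5 NK cell markers measured 3 rose and 0 fell (median 0.80). Of 7 lung epithelium markers 5 rose and 1 fell (median 1.15), and of 7 fibroblast and smooth muscle markers 5 rose (median 0.79). The part of these shifts in the fall of the immunoglobulin genes was not tested.

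**Figure D3:**
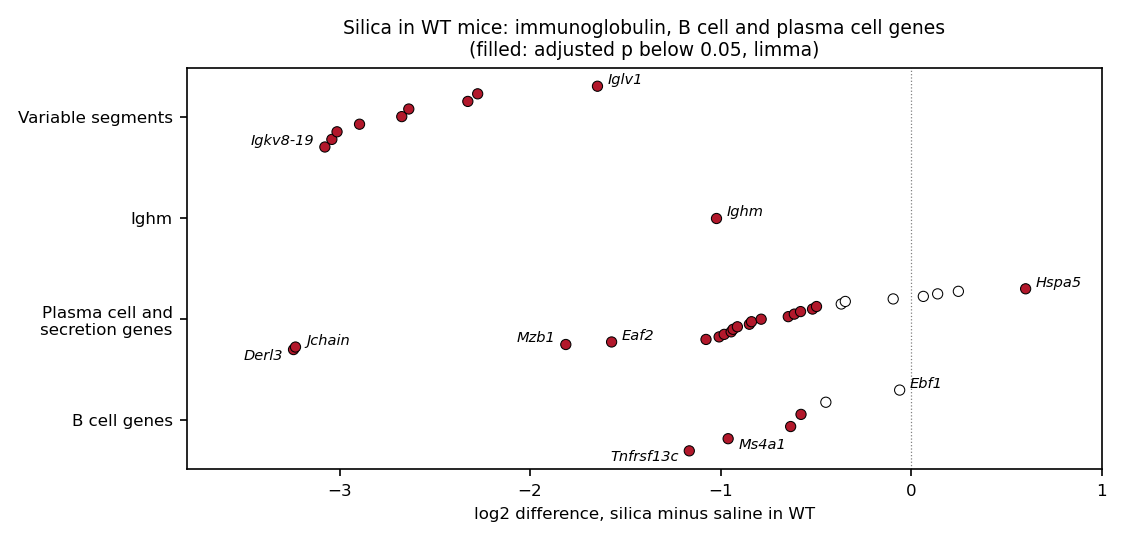
Log2 difference of silica minus saline in WT mice (horizontal axis) for the 9 variable segments, Ighm, 25 plasma cell and secretion genes and 6 B cell genes, 1 point per gene, filled where the adjusted p was below 0.05. Variable segments lie between -3.08 and -1.65, Derl3 and Jchain at -3.24 and -3.23, Ighm at -1.02, and the B cell genes between -1.16 and -0.06.

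The 2 WT silica arrays differed from each other in the same direction for all 9 variable segments, replicate 2 being the lower. For 7 of them the difference lay below the 5th percentile of all genes on these arrays (-0.36), with Ighv1-77 at -1.19, Igkv3-4 at -1.15, Igkv8-19 at -0.86, Ighv14-4 at -0.69, Igkv4-57-1 at -0.61, Ighv1-17 at -0.59 and Igk-V21 at -0.49. Igkv6-20 (-0.05), Iglv1 (-0.05) and Ighm (-0.06) barely differed. For the 7 segments the SD was larger in WT silica than in any other group. It was 0.84 for Ighv1-77, 0.81 for Igkv3-4 and 0.61 for Igkv8-19, against at most 0.12, 0.08 and 0.05 elsewhere. The shared spread therefore gives these 3 SEs, intervals and p-values that are too small where WT silica is compared with 1 other group. Of the 25 plasma cell and secretion genes 20 were lower on replicate 2 and 5 lay below the 5th percentile, with a median of -0.20 and a range from -1.21 (Jchain) to 0.33 (Sdc1). Of the 6 B cell genes 4 were lower and 0 lay below it, with a range from -0.23 (Cd79b) to 0.44 (Ebf1). In the other groups 0 of 9 segments lay below the 5th percentile of their arrays, although Ighm did in RagKO silica (-0.65, against -0.41). All 10 members fell with either WT silica array left out, and the median over the variable segments was -2.98 without replicate 1 and -2.43 without replicate 2.

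**Figure D4:**
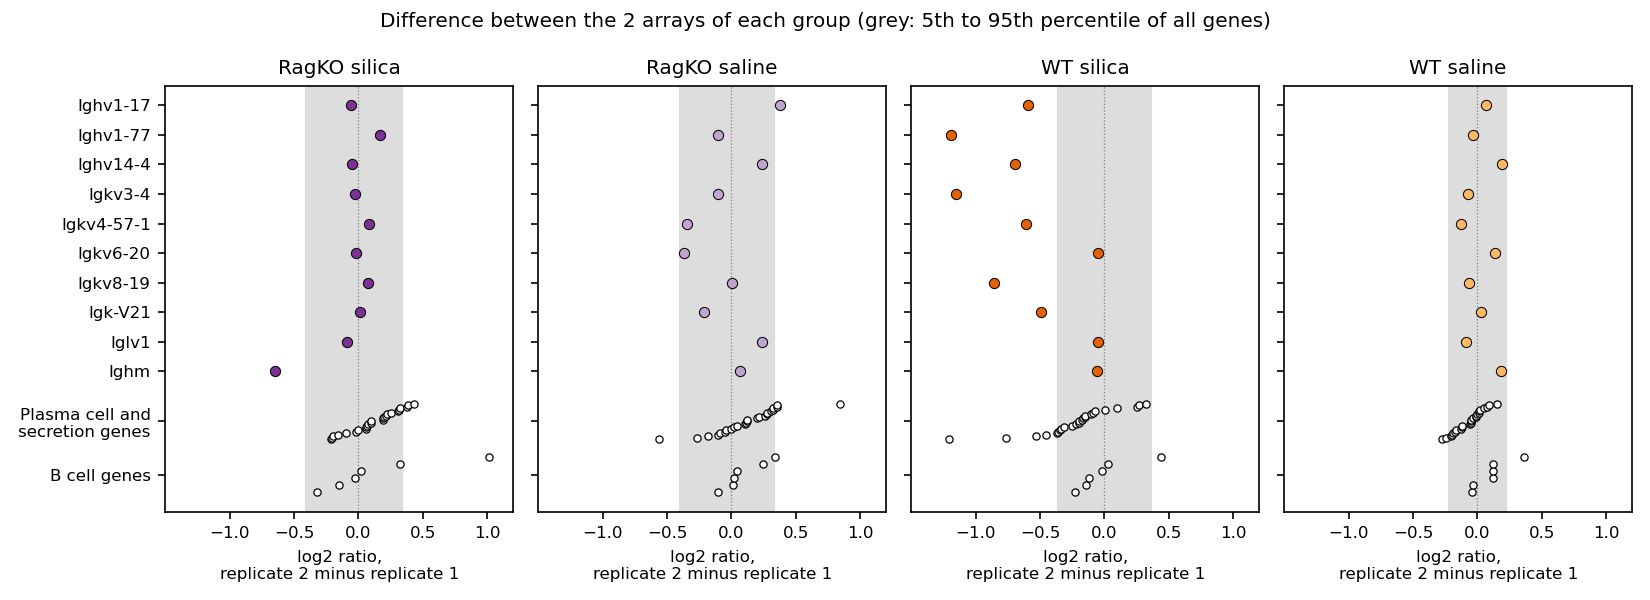
Difference in log2 ratio between the 2 arrays of each group, replicate 2 minus replicate 1 (horizontal axis), for the 10 immunoglobulin genes (coloured points) and all 25 plasma cell and secretion genes and 6 B cell genes measured (open points), with the 5th to 95th percentile of all genes in grey. In WT silica 7 variable segments and 5 plasma cell and secretion genes lie to the left of the grey range, and Iglv1, Igkv6-20 and Ighm lie within it.

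The fourth comparison, silica in RagKO mice, gave small differences. Of 10 members 2 fell, a share close to the 15.9% of all genes that fell (16.8% rose, 32.7% called in all), and the median over the variable segments was -0.35, against -0.03 over all genes. Igkv4-57-1 fell 1.78-fold (-0.83, SE 0.19, adjusted p = 0.00805) and Igk-V21 1.42-fold (-0.51, SE 0.15, adjusted p = 0.0301). Igkv8-19 (-0.55, adjusted p = 0.0768), Ighv1-77 (-0.42), Igkv6-20 (-0.35), Ighv14-4 (-0.35), Ighv1-17 (-0.21), Igkv3-4 (-0.13) and Iglv1 (-0.10) did not pass. Ighm differed by 0.02 with an interval from -0.38 to 0.42 (adjusted p = 0.942), and its RagKO silica arrays, at 2.95 and 2.30, lay on either side of both RagKO saline arrays.

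These few calls depended on single arrays. Without RagKO saline replicate 1 limma called 0 (1 at an unadjusted p below 0.05), Igkv4-57-1 having an adjusted p of 0.0733 and Igk-V21 one of 0.165, and 1 (Igkv4-57-1) without either RagKO silica array. Without RagKO saline replicate 2 Igkv6-20 was also called, at -0.53 (adjusted p = 0.0169). Without either WT silica array, which enters only through the shared spread, there were 4, Ighv1-77 and Igkv8-19 being added. In the same comparison 8 of 25 plasma cell and secretion genes rose and 0 fell, with the activating receptor gene Slamf7 at 1.39, Edem1 at 0.73, Manf at 0.73 and Xbp1 at 0.64, and Jchain did not pass (-0.30). Of 6 B cell genes Cd72 rose by 2.00 and Ms4a1 fell by 0.62. Relative to Ighm 0 of 9 segments passed, as against 0.0862% of genes in either direction and 0% lower (0 of 9 also at an unadjusted p below 0.05 in this limma fit). Of 8 antibody receptor and transport genes 3 rose: Lilrb4a by 1.91, Fcgr2b by 1.48 and Fcgr1 by 1.43. Of 7 macrophage markers 5 rose in the same comparison (median 0.64), their mean being 3.66 and 3.92 in RagKO silica against 2.94 and 3.01 in RagKO saline, and their part in these rises was not tested.

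The difference between the silica effects, RagKO minus WT, was tested as an interaction. It was positive for all 10 members, where 11% of all genes were higher, 12.3% lower and 23.3% called in all, and its median over the variable segments was 2.29, against 0.00 over all genes. Ighv1-17 (2.69, SE 0.26, adjusted p = 0.000179), Igkv6-20 (2.67, SE 0.19, adjusted p = 6.47e-05), Ighv1-77 (2.62, SE 0.40, adjusted p = 0.00157) and Igkv8-19 (2.53, SE 0.31, adjusted p = 0.000457) had the largest values. Igkv4-57-1 (1.49, adjusted p = 0.00326), Iglv1 (1.54, adjusted p = 0.000243) and Ighm (1.04, SE 0.26, adjusted p = 0.0153) had the smallest. The WT saline arrays enter both this value and the WT silica effect.

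The value for Ighm was the least secure. It was 0.54 after quantile normalization (adjusted p = 0.156), 0.95 without WT saline replicate 2 (adjusted p = 0.0575) and 1.01 without RagKO saline replicate 1 (adjusted p = 0.0565). Of its probes, A_51_P485421 gave 1.51 (adjusted p = 0.00124) and A_52_P571419 0.58 (adjusted p = 0.145). With the Ighm ratio subtracted, the interaction passed for 0 of 9 segments in limma (3 at an unadjusted p below 0.05), and for 4 of 11596 genes (0.0345% in either direction, 0.0259% lower), although 7 of 9 estimates were above 1. Of the plasma cell and secretion genes 18 of 25 had a positive interaction and 0 a negative one, with Jchain at 2.94 and Derl3 at 2.89. Of the B cell genes 3 of 6 had a positive one, Cd72 at 2.57, Tnfrsf13c at 0.98 and Ly6d at 0.76. The value for Cd72 came mainly from a rise in RagKO. Its mean was 1.92 in RagKO silica, -0.07 in RagKO saline, 1.875 in WT silica and 2.45 in WT saline.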

How the data were processed

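The members and gene lists were chosen with earlier results of these data known. RNA of lung leukocytes (Cy5) and reference RNA (Cy3) was hybridised to 8 Agilent arrays, per the labels. The deposited table holds a log10 ratio of Cy5 over Cy3 per probe; the direction comes from the labels' dyes, and the base was inferred: the largest value is 737-fold read as log10 and 7.3-fold as log2. The sources used here do not give background correction, dye normalization or filters, so spots near background could not be recognised. Column medians lay between -0.0725 and -0.0521 on the deposited scale, with unknown centring. Of 16251 probes, 14716 had values on all arrays. Ratios were multiplied by 3.3219, and the probes of a gene averaged (11597 genes).

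The main test was limma 3.58.1 (R 4.3.3) on 4 group means over 8 arrays (4 residual degrees of freedom), adjusted by Benjamini-Hochberg over all genes at 0.05, after a test on simulated data. Intervals are 95% and cover single genes. The fit relative to Ighm, chosen after seeing the data, was unmoderated because every value held the same Ighm term. The 5 context lists were B cell, plasma cell and secretion, receptor assembly, antibody receptors, and help and survival genes, of which up to 4 genes by smallest p were named per comparison; genes named outside that rule are given for contrast. All 10 members were named. Alternatives were median centring, quantile normalization, keeping missing values, a trended robust fit, a replicate block, single probes, only the compared arrays and each array left out. The number of arrays limits precision.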

Additional observations from a re-analysis of the deposited data

Results flagged for a closer look

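The effect of silica differed between the genotypes for all 10 immunoglobulin genes, by limma's interaction test over 8 arrays, where 23.3% of all genes were called and 11% higher. The variable segments already read below the reference on every RagKO array, and whether they had room to fall there was not tested. On the log2 scale the RagKO effect minus the WT effect was 2.69 for Ighv1-17, 2.67 for Igkv6-20, 2.62 for Ighv1-77, 2.53 for Igkv8-19, 2.29 for Ighv14-4, 2.16 for Igk-V21, 2.15 for Igkv3-4, 1.54 for Iglv1, 1.49 for Igkv4-57-1 and 1.04 for Ighm. Ighm lost its call after quantile normalization (0.54, adjusted p = 0.156), without WT saline replicate 2 (adjusted p = 0.0575), without RagKO saline replicate 1 (adjusted p = 0.0565) and on its probe A_52_P571419 (0.58, adjusted p = 0.145).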

How the results depend on the processing

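With 2 arrays a group, unknown background correction and variable segments of shared sequence, sizes are less certain than directions. Of 740 values of single members under alternatives, 721 kept direction and side of the threshold. Many of their differences could not change, so this count overstates stability. Leaving out an array of a group not compared, adding probes with missing values, or fitting single probes of a gene with 1 complete probe leaves the difference as it was. For Ighm the single-probe alternative counted only the probe with the smaller p. Read as log2, the medians over the variable segments would be -1.38 and -0.66 for RagKO against WT after saline and silica, -0.80 and -0.10 for silica in WT and RagKO, and 0.69 for the interaction. Leaving out single arrays gave medians of -4.64 to -4.53, -2.54 to -1.60, -2.98 to -2.43, -0.47 to -0.34 and 1.94 to 2.69, in the order RagKO against WT after saline, after silica, silica in WT, silica in RagKO and interaction. Called members then numbered 10 to 10, 9 to 9, 10 to 10, 0 to 4 and 9 to 10. Silica in RagKO called 4 members in a fit of its own 4 arrays; Ighm there turned to -0.096 after quantile normalization and ran between -0.30 and 0.34 with an array left out, and Iglv1 between -0.22 and 0.016, none called. Genes called for silica in WT fell to 861, 940 and 1130 without WT saline replicate 2, WT saline replicate 1 and WT silica replicate 2, against 2283, and for the interaction to 1647 and 1649 without a WT saline array, against 2697. For silica in RagKO they were 2380 without RagKO saline replicate 1 and 2393 without RagKO silica replicate 1, against 3795; those fits have fewer arrays. Relative to Ighm 4, 7, 7, 0 and 0 of 9 segments passed in the order above. Deviations of same-numbered arrays correlated between -0.073 and 0.111, which gave no sign of pairing by number but cannot exclude it. With the replicate number as a block the members called were 10, 9, 10, 2 and 10, as without it.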
